A study of Mus musculus with 15 samples.

Results

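The genes described here are 40 genes of kinetochores, condensin, the mitotic spindle and cytokinesis, the machinery with which a dividing cell packs, attaches, parts and encloses its chromosomes, measured in mouse liver. They were chosen by name: a probe set counted where its only annotated gene symbol was 1 of the 40, and where a gene had several, the brightest on average was used. All 40 were found, among 18193 genes named by 1 symbol in the whole series, and all 40 were among the 9482 genes that passed a filter on low values (a log2 value of 4 on at least 3 of the 15 arrays).

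Liver RNA of mice aged 15 weeks was hybridised to 15 Affymetrix 3′ expression arrays. The mice were labelled male, except that replicate 1 of the Tlr4 mutant carries no sex label. Untreated wild-type C3H/HeOuJ mice gave 3 arrays. Treated wild-type C3H/HeOuJ mice gave 4 arrays and received diethylnitrosamine (DEN), a carcinogen that alkylates DNA in hepatocytes, at 100 mg/kg in week 12 and carbon tetrachloride (CCl4), a solvent that kills hepatocytes, at 0.50 ml/kg in weeks 13 and 15. Treated Tlr4 mutant mice, C3H/HeJ with the allele labelled Tlr4P712H, gave 4 arrays and received the same DEN and CCl4. Treated antibiotic mice, C3H/HeOuJ again, gave 4 arrays. For 2 weeks from week 10, before the same DEN and CCl4, they drank an antibiotic mixture. It held vancomycin at 500 mg/l, and neomycin, metronidazole and ampicillin at 1 g/l of each. All treated mice were killed 48 h after the last CCl4. The mutation and the strain differ together, so their effects cannot be told apart, and there is no untreated mutant group and no antibiotic group without DEN and CCl4. A free-text label of the samples gives other ages and a liver resection, and was not used for the groups. Nothing in the labels says that arrays of a group came from separate animals, so p-values measure only the spread between these samples.

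A cell that enters mitosis condenses its chromosomes with condensin and topoisomerase, builds kinetochores on its centromeres, holds sister chromatids together until the anaphase-promoting complex triggers their release, and then cleaves between the separated sets. Most of these genes are transcribed late in the cell cycle and are silent in resting cells, where the DREAM complex binds a promoter element called the cell cycle genes homology region (CHR), often placed near CCAAT boxes bound by NF-Y. Adult hepatocytes rest, and they divide again after toxic injury or loss of tissue. TLR4 is the receptor for bacterial lipopolysaccharide, and oral antibiotics deplete the gut bacteria that shed it.

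The entries of the RefSeq promoter table (assembly GRCm38.p6, 250 bases before to 50 after each start) covered 36 of the 40 genes. Stretches of 120 bases that end at the start are shown for 8 of them, chosen to span promoters with both elements, with only one and with neither. Each is printed 5′ to 3′ on the gene's strand, and the capitals mark the CHR (TTTGAA, or TTCAAA on the other strand), the CHR variant TTCGAA and the CCAAT box (CCAAT, or ATTGG on the other strand).
Cdc20 (chr4:118437344-118437463, minus strand): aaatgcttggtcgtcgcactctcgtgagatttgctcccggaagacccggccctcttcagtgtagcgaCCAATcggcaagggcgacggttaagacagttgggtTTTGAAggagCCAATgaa
Cdk1 (chr10:69352913-69353032, minus strand): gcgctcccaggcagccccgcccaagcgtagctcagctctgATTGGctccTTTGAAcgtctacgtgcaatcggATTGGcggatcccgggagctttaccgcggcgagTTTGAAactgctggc
Ube2c (chr2:164769809-164769928, plus strand): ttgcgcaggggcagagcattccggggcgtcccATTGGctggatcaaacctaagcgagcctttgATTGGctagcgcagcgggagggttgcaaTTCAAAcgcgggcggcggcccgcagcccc
Top2a (chr11:99024190-99024309, minus strand): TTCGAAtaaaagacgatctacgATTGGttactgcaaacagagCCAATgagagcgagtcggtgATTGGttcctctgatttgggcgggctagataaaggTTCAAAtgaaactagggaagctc
Ncapg (chr5:45669805-45669924, plus strand): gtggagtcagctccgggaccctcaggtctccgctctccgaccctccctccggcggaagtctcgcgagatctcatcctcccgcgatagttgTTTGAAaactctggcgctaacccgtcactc
Cks1b (chr3:89418292-89418411, minus strand): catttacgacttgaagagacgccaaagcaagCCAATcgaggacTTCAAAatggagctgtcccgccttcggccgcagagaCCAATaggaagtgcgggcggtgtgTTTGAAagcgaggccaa
Hmmr (chr11:40733438-40733557, minus strand): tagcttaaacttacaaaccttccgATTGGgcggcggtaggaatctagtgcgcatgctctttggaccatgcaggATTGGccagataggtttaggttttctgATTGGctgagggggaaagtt
Anln (chr9:22389207-22389326, minus strand): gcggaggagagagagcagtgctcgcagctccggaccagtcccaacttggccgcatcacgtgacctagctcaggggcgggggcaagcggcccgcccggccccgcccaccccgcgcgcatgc
Cdc20, Cdk1, Ube2c, Top2a and Cks1b held both elements in these 120 bases. Ncapg held a CHR without a CCAAT box, Hmmr held CCAAT boxes without a CHR, and Anln held neither there. Hmmr and Anln carried their CHR after the start.

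Over the 250 bases before the start, the CHR was found in 17 of 36 genes (47.2%), against 18.3% of the 27025 genes in the table. The CCAAT box was found in 26 of 36 (72.2%) against 37.5%, and a CCAAT box together with a CHR or its variant in 15 of 36 (41.7%) against 7.0%. With the 50 bases after the start included, the CHR was found in 27 of 36 (75.0%) against 20.2%, because 10 genes carried it only after the start. The other 9 genes, Birc5, Cenpe, Cenph, Cenpk, Cks2, Ncaph, Nuf2, Nusap1 and Pttg1, had no CHR match in the entry. The E2F motif TTTGGCGC was found before the start in 1 of 36 genes (2.78%) against 0.485%, and TTTCCCGC in 0 of 36 against 1.03%. Both strands were searched for each motif, the CHR variant TTCGAA reads the same on both, and no motif searched contains another. The matches describe letters in a window and are not measured binding sites. Foxm1, Incenp, Smc4 and Tpx2 have no entry.

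Values are log2 GCRMA summaries, and 4 is used here as the limit of background. Between 34.6% and 36.7% of all probe sets reached it on each array, and arrays of a group correlated at 0.977 to 0.993 across the 9482 kept genes, which are not independent. The summed level of 9 hepatocyte markers, among them Alb, Ttr and Hnf4a, was 16.90 to 17.17 on all 15 arrays, high in every group as in liver. Tlr4 itself was between 1.81 and 3.67 on every array with each of its probe sets, under the limit in every group; the mutant allele is a base change in the coding sequence, so its transcript level checks nothing. A gene was called higher or lower where limma's adjusted p, by Benjamini-Hochberg over all 9482 genes, was under 0.05.

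Every one of the 40 genes was higher in wild-type liver after DEN and CCl4 than in untreated liver. Their median fitted log2 difference was 5.83, against 0.10 over all genes tested. Where the untreated level was under the limit only a lower bound of the rise is known: Cdc20, the activator of the anaphase-promoting complex, rose at least 155-fold, Mki67, the proliferation antigen that coats mitotic chromosomes, at least 152-fold, and Foxm1 at least 1.97-fold. Cks2, a small subunit of cyclin-dependent kinases detected on every untreated array, rose 2.39-fold. These folds belong to the probe set used: the other kept probe sets of Cdc20 rose by 6.68 and 1.67 on the log2 scale. All 40 were called higher, against a background of 35.9% of genes, and for all 40 the lowest treated array lay above the highest untreated one, against 37.5%. In untreated liver 29 of the 40 were under 4 on all 3 arrays, 33 with 5 as the limit. Those 29 passed the filter only through treated groups, so they had to differ here, and the count of 40 is no support for the list. With values under 4 set to 4 the median difference was 4.55. The 7 genes at 4 or more on every untreated array were Cenpa, Cks1b, Cks2, Pttg1, Smc2, Smc4 and Spc25 and their rises are measured against a detected level. Every gene reached 4 on all 4 treated wild-type arrays. When each array was centred on its median, the median difference of all genes moved from 0.10 to -0.12 and the share of called genes that were higher from 57.4% to 42.4% (43.8% after quantile normalization); the median of the 40 was then 5.61, and all 40 were still called higher.

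**Figure D1:**
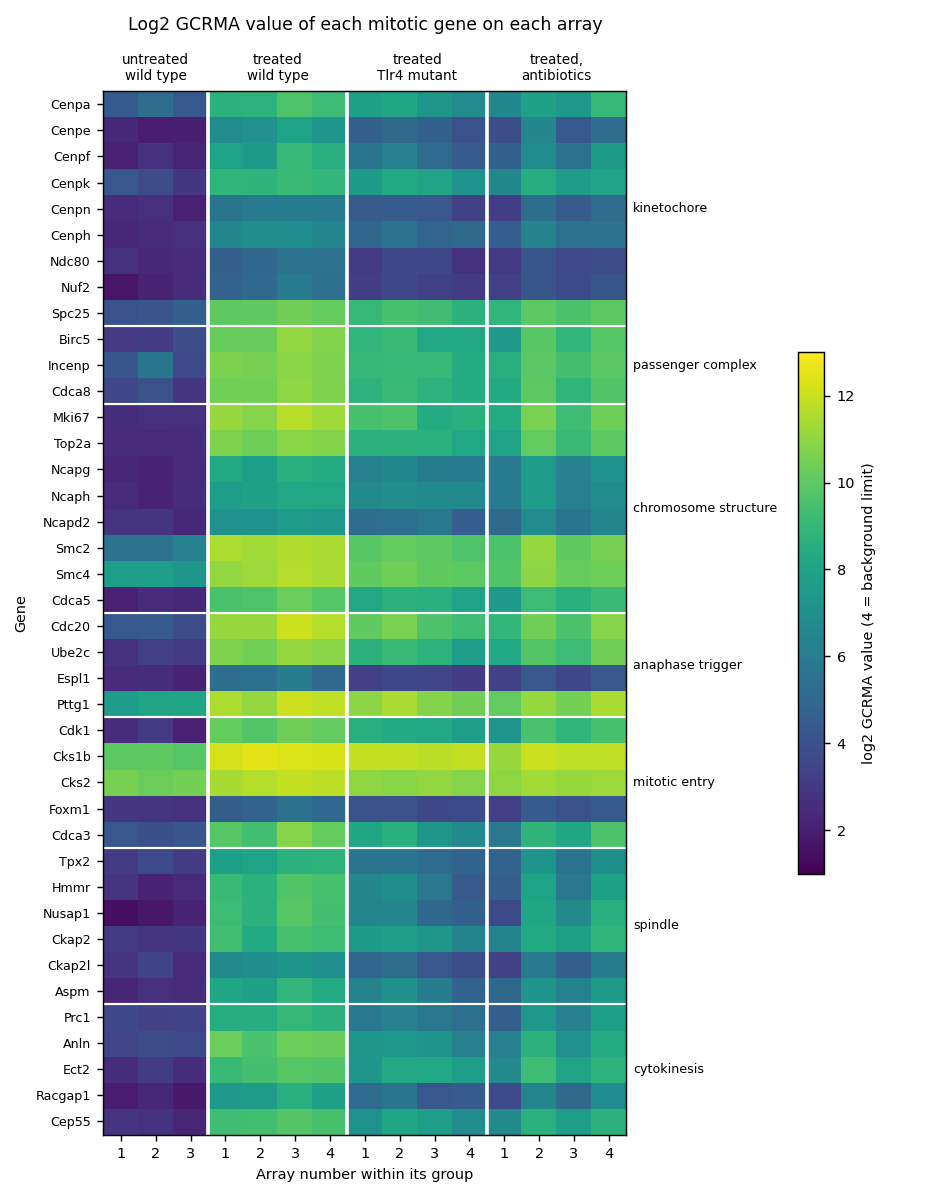
Log2 GCRMA value (colour, from 1 to 13) of each of the 40 genes (rows, by role) on each of the 15 arrays (columns, by group). The 3 untreated columns are dark for most genes, with 29 under 4 on all 3 arrays, and all 40 genes are at 4 or more on the 4 treated wild-type arrays.

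The treated Tlr4 mutant livers had less of nearly all of these transcripts than treated wild-type livers. Of the 40 genes 39 were called lower and 0 higher, against a background of 17.6% of genes called lower, and 37 of them by at least 2-fold, against 7.87%. Both counts hold Espl1, Foxm1, Ndc80 and Nuf2, which passed the filter only through treated wild type. These genes had to be lower here and add no support. The median log2 difference was -1.94, against 0.02 over all genes, and it ranged from -3.61 for Nusap1, a protein that bundles spindle microtubules, to -0.47 for Cks1b. Every mutant array was below every treated wild-type array for 39 genes, against 17.6% of all genes. The exception to both counts was Pttg1, which encodes securin. By role, the median differences were -2.83 for cytokinesis, -2.66 for the spindle, -1.87 for the chromosomal passenger complex, -1.86 for the anaphase trigger, -1.78 for chromosome structure, -1.77 for kinetochores and -1.18 for mitotic entry. All 40 remained higher than in untreated liver, with a median of 3.52 and against a background of 32.6% of genes called higher. The 29 genes under 4 on every untreated array passed the filter only through treated groups, so this count is no support for the list. For Espl1, Foxm1, Ndc80 and Nuf2 all mutant and untreated arrays were under 4, and no fold is given. With values under 4 set to 4, 30 of the 40 were called higher than in untreated liver.

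The livers of antibiotic-treated mice also had less of these transcripts than treated wild-type livers. Against treated wild-type liver 36 of the 40 genes were called lower and 0 higher, against a background of 9.01%, and 33 by at least 2-fold, against 3.41%. The 36 hold Espl1, Foxm1, Ndc80 and Nuf2, which passed the filter only through treated wild type and add no support here either. The median log2 difference was -1.40, against -0.03 over all genes, and the fitted values ran from -2.69 for Hmmr, a hyaluronan receptor that also acts on the spindle, to -0.52 for Cks2. The arrays did not overlap, antibiotic lower, for 35 genes, against 11.6%. The genes not called were Cdca3 (-1.97 ± 0.63, adjusted p = 0.0514), Ckap2 (-1.29 ± 0.43, adjusted p = 0.0614), Pttg1 and Spc25. The count of calls moved with single arrays: it was 21 without treated wild-type replicate 3, 23 without antibiotic replicate 1 and 23 without antibiotic replicate 3. It was also 21 when only the groups compared were fitted. The median difference moved less, to -1.29, -1.06 and -1.34 without those arrays, and stayed at -1.40 in the fit of the groups compared. Of the 36 calls, 20 were kept with any 1 array left out. The other 16 were lost with at least 1 array left out, and they were those of Aspm, Birc5, Cdca5, Cdk1, Cenpa, Cenpf, Cenpk, Cenpn, Cks1b, Ect2, Foxm1, Incenp, Mki67, Ncapd2, Nusap1 and Ube2c. In the mutant comparison 37 of the 39 calls were kept, and those of Cks1b and Cenpk were not. All 40 genes stayed higher than in untreated liver, with a median of 3.99 and a background of 34.5%, and 35 with values under 4 set to 4. Here too the 29 genes under 4 on every untreated array passed only through treated groups, and the count of 40 is no support. This comparison and the mutant one share the 4 treated wild-type arrays.

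Markers of other liver cells moved between the same groups. In bulk RNA, fewer cells of a type and less RNA per cell cannot be told apart. The summed level of 13 macrophage markers (log2 of the sum, 12 of 13 passing the filter) was 9.97 to 11.20 in untreated, 12.81 to 13.31 in treated wild-type, 10.47 to 10.78 in mutant and 11.63 to 12.56 in antibiotic livers. Of these markers, the Kupffer cell receptors Clec4f and Vsig4 averaged under 4 in the mutant, at 3.13 and 3.77, and Timd4 was under 4 in every group mean. Of the 12 that passed, 11 were called lower and 0 higher in the mutant than in treated wild type, against 17.6% of genes called lower. Against untreated liver the list was mixed in the mutant, with 3 called higher and 5 lower. Of all 9482 genes, 3095 were called higher and 2041 lower there. The 10 stellate cell and fibroblast markers, 9 passing, gave 11.06 to 12.23, 13.84 to 14.04, 12.07 to 12.53 and 13.24 to 13.72 in the same order. The 9 endothelial markers, 8 passing, gave 10.32 to 11.10, 11.41 to 11.64, 10.32 to 10.74 and 11.16 to 11.60. Within the antibiotic group the macrophage sums were 11.80, 11.63, 12.56 and 12.15 for replicates 1 to 4, where the 40 genes were lowest in replicate 1 and highest in replicates 2 and 4. The stellate cell and fibroblast sums were 13.24, 13.45, 13.70 and 13.72, and the endothelial sums 11.60, 11.16, 11.54 and 11.44. For neutrophil markers the sums were 4.93, 5.12, 5.30 and 5.33, for cholangiocyte markers 6.04, 6.04, 6.17 and 5.90, and for erythroid markers 6.59, 6.85, 6.78 and 7.21. None of 8 T and NK cell or 4 B cell markers passed the filter. The 5 neutrophil markers, 2 passing, gave 4.75 to 4.76, 6.02 to 7.17, 4.82 to 5.47 and 4.93 to 5.33, the 5 cholangiocyte markers 5.11 to 5.25, 5.83 to 6.19, 6.15 to 6.8 and 5.90 to 6.17, and the 4 erythroid markers 9.16 to 9.59, 6.66 to 7.15, 6.57 to 7.53 and 6.59 to 7.21. The part of these cell types in the differences of the 40 genes was not tested.

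The split of calls over all genes depended on the scaling. Genes called higher than in treated wild type made up 42.8% of calls in the mutant comparison and 55.3% after quantile normalization, and 35.4% in the antibiotic comparison, 49.8% after quantile normalization and 45.6% after centring. Against untreated liver they made up 60.3% of the mutant calls and 58.6% of the antibiotic calls, and 43.4% and 44.5% after centring. The counts for the 40 genes after quantile normalization were 39 lower and 37 lower, with medians of -1.90 and -1.41.

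**Figure D2:**
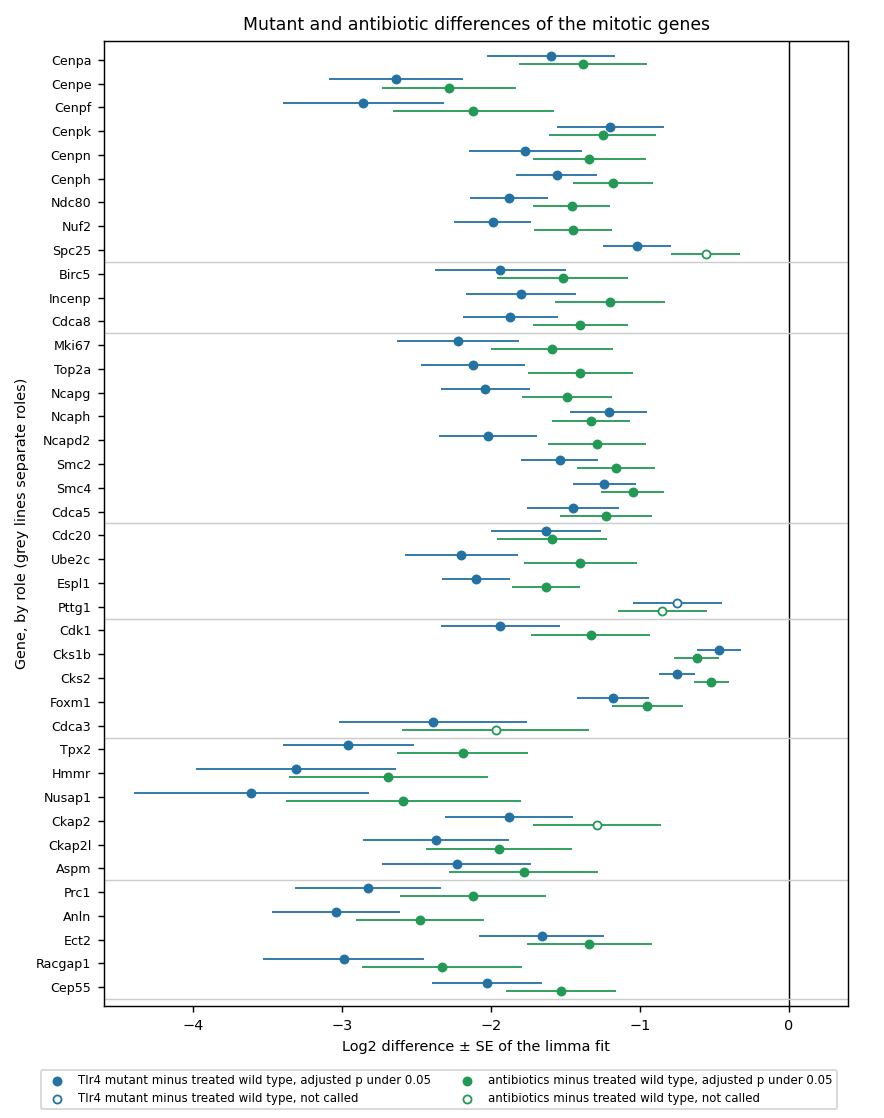
Log2 difference from treated wild type (x axis, point with SE of the limma fit) of each gene (y axis, by role) for the Tlr4 mutant and for antibiotics, 4 arrays a group. Every point lies left of 0; open points were not called, and they are 1 gene for the mutant and 4 for antibiotics.

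Kinetochores join chromosomes to spindle microtubules, and 9 of the genes belong to them or to the centromere beneath. Cenpa, the histone H3 variant that marks the centromere, was measured in untreated liver at 4.39, 5.30 and 4.30 and in treated wild-type liver at 8.70, 8.78, 9.70 and 9.23. Its mutant arrays read 7.83, 8.05, 7.34 and 6.77, and its antibiotic arrays 6.60, 7.86, 7.42 and 9.02. No treated array of any group fell to an untreated level, the mutant arrays all lay below the wild-type ones, and antibiotic replicate 4 lay within the wild-type range. Cenpa rose 21.7-fold with treatment (log2 4.44 ± 0.47 SE, limma adjusted p = 1.56e-06), and it was 3.04-fold lower in the mutant (adjusted p = 0.0121) and 2.6-fold lower with antibiotics (adjusted p = 0.0481). The antibiotic call was lost with any of 12 of the 15 arrays left out and under 3 other settings, at adjusted p-values of 0.0516 to 0.138.

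Ndc80, Nuf2 and Spc25 encode subunits of the complex that grips the microtubule. Ndc80 read 2.74, 2.34 and 2.46 in untreated, 4.67, 4.99, 5.46 and 5.48 in treated wild-type, 3.06, 3.62, 3.62 and 2.78 in mutant and 3.04, 4.21, 3.64 and 3.84 in antibiotic livers. It was thus above background on all treated wild-type arrays, on none of the mutant arrays and on 1 antibiotic array. The rise was at least 2.22-fold (adjusted p = 1.66e-06) and the mutant was at least 2.22-fold lower (adjusted p = 0.000113). Nuf2 had a treated wild-type mean of 5.29 ± 0.47 (SD, n = 4) and a mutant mean of 3.30 ± 0.23 (SD, n = 4). Spc25 read 4.04, 4.17 and 4.68 in untreated and 10.03, 10.05, 10.42 and 10.18 in treated wild-type livers, 9.03, 9.52, 9.31 and 8.71 in the mutant and 8.91, 9.98, 9.57 and 9.96 with antibiotics. It rose 58.6-fold and was 2.03-fold lower in the mutant (adjusted p = 0.00442). All antibiotic arrays of Spc25 were below all wild-type arrays, but the difference of -0.56 ± 0.23 was not called (adjusted p = 0.123).

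The remaining kinetochore genes were Cenpe, a kinesin motor, Cenpf, a large coiled-coil protein of the outer kinetochore, and Cenph, Cenpk and Cenpn of the inner kinetochore. They rose with treatment from untreated levels under the limit on at least 1 array, so their rises are bounds: at least 3.71-fold for Cenpn, at least 6.48-fold for Cenph, at least 9.7-fold for Cenpe, at least 19.3-fold for Cenpf and at least 28.8-fold for Cenpk. In the mutant Cenpf was 7.26-fold and Cenpe 6.23-fold lower, while Cenpk was 2.3-fold lower. All 5 were called lower in both comparisons with treated wild type, and the Cenpk call in the mutant was lost with either of 2 arrays left out (adjusted p = 0.0542 and 0.061).

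The chromosomal passenger complex corrects faulty attachments and later directs cytokinesis; Birc5 (survivin), Incenp and Cdca8 (borealin) encode its subunits other than the kinase. Birc5 read 2.98, 3.12 and 3.82 in untreated liver and 10.19, 10.21, 11.06 and 10.71 in treated wild-type liver. Its mutant values were 8.90, 9.15, 8.15 and 8.21, and its antibiotic values 7.5, 9.86, 8.88 and 9.85. The wild-type treated arrays were above all others, and antibiotic replicate 1 was below every mutant array. Birc5 rose at least 93.1-fold with treatment (adjusted p = 1.4e-08) and was 3.83-fold lower in the mutant (adjusted p = 0.0042). Incenp and Cdca8 were 3.48-fold and 3.65-fold lower in the mutant, and 2.3-fold and 2.64-fold lower with antibiotics.

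Mki67 coats mitotic chromosomes, and Top2a is the topoisomerase that untangles sister chromatids. With the probe set used, both were under 4 on all untreated arrays. Untreated arrays read 2.59, 2.66 and 2.67 for Mki67, treated wild-type arrays 11.16, 10.84, 11.72 and 11.29, mutant arrays 9.51, 9.63, 8.38 and 8.61 and antibiotic arrays 8.39, 10.60, 9.27 and 10.37. The rise was at least 152-fold (adjusted p = 1.28e-09). The mutant was 4.65-fold lower than treated wild type (adjusted p = 0.00107) and the antibiotic group 3.02-fold lower (adjusted p = 0.0203), without overlap in either. For Top2a the untreated arrays read 2.49, 2.41 and 2.51, the treated wild-type arrays 10.70, 10.36, 10.86 and 10.78, the mutant arrays 8.73, 8.70, 8.66 and 8.15 and the antibiotic arrays 7.90, 10.11, 9.12 and 9.96. It rose at least 102-fold, and it was 4.33-fold lower in the mutant (adjusted p = 0.000509) and 2.65-fold lower with antibiotics (adjusted p = 0.0182). A second kept probe set of Top2a read 4.61, 4.51 and 5.54 on the untreated arrays and rose by only 2.75 on the log2 scale. It was lower by 1.38 in the mutant and 1.45 with antibiotics.

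Condensin I folds chromosomes into rods and is built from Smc2 and Smc4, which condensin II shares, with Ncapg, Ncaph and Ncapd2. Ncapg read 2.27, 2.18 and 2.43 in untreated, 8.31, 7.78, 8.62 and 8.36 in treated wild-type, 6.31, 6.62, 6.05 and 5.93 in mutant and 5.97, 7.64, 6.32 and 7.15 in antibiotic livers. Its wild-type treated arrays were all above the rest. Ncapg rose at least 19.2-fold, and was 4.1-fold lower in the mutant (adjusted p = 0.000182). Ncaph read 6.71, 6.92, 6.70 and 6.72 in the mutant, a spread of 0.10 (SD, n = 4), and 5.98, 7.58, 6.23 and 6.81 with antibiotics. The mutant and antibiotic means of Ncaph differed by 0.11 ± 0.26 (adjusted p = 0.822). The treated wild-type arrays of Ncaph read 7.69, 7.88, 8.15 and 8.18.

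Smc4 was already present in untreated liver, at 7.70, 7.71 and 7.34, and reached 11.04, 11.23, 11.69 and 11.48 with treatment, a 13.7-fold rise. It read 10.06, 10.35, 10.09 and 9.99 in the mutant and 9.76, 10.93, 10.20 and 10.37 with antibiotics, 2.36-fold and 2.06-fold lower. Neither group overlapped with treated wild type. Smc2 and Ncapd2 were 2.9-fold and 4.05-fold lower in the mutant. Cdca5, or sororin, which shields cohesin until anaphase, rose at least 56.6-fold and was 2.73-fold lower in the mutant.

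Anaphase starts when Cdc20 activates the anaphase-promoting complex, Ube2c supplies it with ubiquitin, securin (Pttg1) is destroyed and separase (Espl1) cuts cohesin. Cdc20 read 4.31, 4.41 and 3.77 in untreated liver and 11.15, 11.14, 12.07 and 11.69 in treated wild-type liver, a rise of at least 155-fold with this probe set. The mutant arrays read 10.06, 10.57, 9.67 and 9.26 and the antibiotic arrays 8.94, 10.38, 9.58 and 10.81. These ranges lay wholly below treated wild type, 3.09-fold lower in the mutant (adjusted p = 0.0045), and their means were -0.04 ± 0.37 apart. Ube2c read 2.76, 3.29 and 3.04, then 10.69, 10.43, 11.10 and 10.88 with treatment, 8.73, 9.09, 8.75 and 7.74 in the mutant and 8.15, 9.77, 9.22 and 10.38 with antibiotics. It rose at least 110-fold and was 4.59-fold lower in the mutant (adjusted p = 0.000675).

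Pttg1, securin, was not called in the mutant with its main probe set. It read 7.61, 8.0 and 8.08 in untreated liver, 11.53, 11.09, 12.10 and 11.87 in treated wild type, 10.93, 11.47, 10.75 and 10.40 in the mutant and 10.14, 11.09, 10.48 and 11.48 with antibiotics. Mutant replicate 2 and antibiotic replicate 4 lay within the treated wild-type range. The rise of 13.5-fold was called; the mutant difference of -0.75 ± 0.30 (adjusted p = 0.0669) and the antibiotic difference of -0.85 ± 0.30 (adjusted p = 0.069) were not. The other kept probe sets of Pttg1 gave -1.21 and -1.38 in the mutant, and both were called. Espl1 was at or above 5.13 on every treated wild-type array and under 4 on every mutant array, at least 2.8-fold lower (adjusted p = 1.67e-05).

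Entry into mitosis turns on Cdk1, with its small partners Cks1b and Cks2, the transcription factor Foxm1 and Cdca3. Cdk1 read 2.55, 3.05 and 2.10 in untreated liver, 10.16, 9.80, 10.39 and 10.12 in treated wild type, 8.52, 8.33, 8.19 and 7.67 in the mutant and 7.25, 9.57, 8.83 and 9.53 with antibiotics. Treated wild type stood above every other array. Cdk1 rose at least 69.6-fold (adjusted p = 3.79e-09) and was 3.84-fold lower in the mutant (adjusted p = 0.00241) and 2.51-fold lower with antibiotics (adjusted p = 0.0422). Foxm1, which drives late cell cycle genes, read 2.89, 2.80 and 2.75 in untreated, 4.52, 4.84, 5.44 and 5.11 in treated wild-type, 3.95, 3.98, 3.59 and 3.68 in mutant and 3.27, 4.48, 3.98 and 4.40 in antibiotic livers. Its rise was at least 1.97-fold and its mutant difference at least 1.97-fold lower (adjusted p = 0.00205), with all mutant arrays under 4.

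The partners of Cdk1 were detected in untreated liver, so their rises are measured rather than bounds. Cks1b read 9.97, 10.01 and 9.83 in untreated liver, 12.23, 12.50, 12.31 and 12.29 in treated wild type, 11.89, 11.92, 11.75 and 11.88 in the mutant and 11.13, 12.02, 11.85 and 11.86 with antibiotics. It rose 5.26-fold, and it was 1.39-fold lower in the mutant (adjusted p = 0.032) and 1.53-fold lower with antibiotics (adjusted p = 0.0176). The mutant call was lost with any of 7 arrays left out, at adjusted p-values of 0.0535 to 0.0895. A second probe set of Cks1b gave wider differences, 4.43 with treatment, -0.88 in the mutant and -1.02 with antibiotics. Cks2 read 10.52, 10.28 and 10.51 in untreated liver and 11.41, 11.65, 11.90 and 11.81 in treated wild type, a 2.39-fold rise. Mutant arrays of Cks2 read 11.02, 10.87, 11.06 and 10.80 and antibiotic arrays 10.99, 11.33, 11.15 and 11.24, 1.69-fold lower (adjusted p = 0.000389) and 1.43-fold lower (adjusted p = 0.0136). Both genes were above background on every array of the study, and for both the groups with and without treatment did not overlap.

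The spindle genes held the largest mutant differences together with those of cytokinesis. Nusap1 read 1.46, 1.80 and 2.14 in untreated liver, 9.22, 8.70, 9.89 and 9.47 in treated wild type, 6.52, 6.54, 5.04 and 4.74 in the mutant and 3.69, 8.09, 6.63 and 8.52 with antibiotics. It was 12.2-fold lower in the mutant (log2 -3.61 ± 0.79 SE, adjusted p = 0.00343). Antibiotic replicate 1 was under 4 while replicates 2 and 4 were above every mutant array, and the antibiotic difference of -2.59 ± 0.79 had an adjusted p of 0.0436. Hmmr read 2.81, 2.12 and 2.42, then 9.09, 8.69, 9.74 and 9.51 with treatment, 6.57, 6.98, 5.81 and 4.42 in the mutant and 4.65, 7.97, 5.79 and 7.86 with antibiotics. It was 9.94-fold lower in the mutant (adjusted p = 0.0019) and 6.45-fold lower with antibiotics (adjusted p = 0.0167).

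Tpx2, which activates Aurora A and nucleates spindle microtubules, read 3.02, 3.67 and 3.10 in untreated and 7.79, 7.97, 8.73 and 8.75 in treated wild-type liver. Its mutant arrays read 5.67, 5.67, 5.18 and 4.88 and its antibiotic arrays 4.83, 7.2, 5.46 and 7.0. Tpx2 was 7.76-fold lower in the mutant (adjusted p = 0.000212) and 4.56-fold lower with antibiotics (adjusted p = 0.00668), without overlap. Its second kept probe set was under 4 on all mutant arrays and was also called lower there (adjusted p = 0.0302). That probe set passed the filter only through treated wild type, so its call adds no support. Aspm, a spindle pole protein, was 4.68-fold lower in the mutant, and the microtubule-associated Ckap2 and Ckap2l were 3.68-fold and at least 5.06-fold lower.

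Cytokinesis begins where Prc1 bundles the midzone microtubules and Racgap1 brings Ect2 to activate RhoA, continues with anillin (Anln) in the contractile ring and ends with Cep55 at the midbody. Anln read 3.51, 3.76 and 3.65 in untreated liver, 10.24, 9.55, 10.31 and 10.21 in treated wild type, 7.33, 7.39, 7.21 and 6.22 in the mutant and 6.28, 8.69, 7.07 and 8.37 with antibiotics. It was 8.23-fold lower in the mutant (log2 -3.04 ± 0.43 SE, adjusted p = 0.000133) and 5.56-fold lower with antibiotics (adjusted p = 0.00325), without overlap in either. Racgap1 read 1.90, 2.31 and 1.88, then 7.47, 7.63, 8.58 and 7.83 with treatment, 5.22, 5.66, 4.25 and 4.44 in the mutant and 3.68, 6.49, 5.17 and 6.85 with antibiotics. It was 7.92-fold lower in the mutant (adjusted p = 0.000918). Prc1 read 3.61, 3.31 and 3.41 in untreated liver, 8.46, 8.47, 8.98 and 8.72 in treated wild type, 5.85, 6.31, 5.78 and 5.38 in the mutant and 4.63, 7.42, 6.30 and 7.78 with antibiotics. The mutant difference of Prc1 was -2.83 ± 0.49 (adjusted p = 0.000622), and the arrays of all 3 treated groups lay above the untreated arrays. Cep55 and Ect2 were 4.1-fold and 3.15-fold lower in the mutant.

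Compared directly, the mutant and antibiotic groups had 0 of the 40 genes called by limma's adjusted p, where 12.3% of all genes were called and 6.88% were called lower in the mutant. At an unadjusted p under 0.05 there was 1 gene, Ncapd2 (-0.73 ± 0.33, adjusted p = 0.159), and the adjusted p-values ran from 0.159 to 0.961. The differences ran from -1.02 ± 0.79 for Nusap1 to 0.15 ± 0.15 for Cks1b, with a median of -0.46, and 36 of the 40 were negative, the mutant being lower. The 95% interval spanned 0 for 39 genes, and for 26 it reached below -1, so a 2-fold lower level in the mutant lay within it. Without antibiotic replicate 1, 10 genes were called lower in the mutant, among them Top2a (-1.17, adjusted p = 0.0045), Prc1 (-1.34, adjusted p = 0.0105), Cdk1 (-1.13, adjusted p = 0.0121) and Nusap1 (-2.04, adjusted p = 0.0179). In the group means 36 genes stood in the order treated wild type, antibiotics, mutant. Cenpk, Pttg1, Ncaph and Cks1b had a mutant mean above the antibiotic mean, by less than their SD among the antibiotic arrays. For Ncaph and Cks1b the difference was larger than the SD among the mutant arrays (0.103 and 0.073).

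The antibiotic livers differed most among themselves. The SD of a gene among the 4 antibiotic arrays had a median of 0.94 over the 40 genes, against 0.34 in treated wild type, 0.45 in the mutant and 0.25 in untreated liver. Over all genes the medians were 0.22, 0.18, 0.21 and 0.15. Antibiotic replicate 1 was the lowest of its group for 40 of 40 genes and below every mutant array for 26. Replicates 2 and 4 were above every mutant array for 37 genes each. In treated wild type, replicate 3 was the highest for 35 genes, and in the mutant replicate 2 was the highest for 35 and replicate 4 the lowest for 32.

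**Figure D3:**
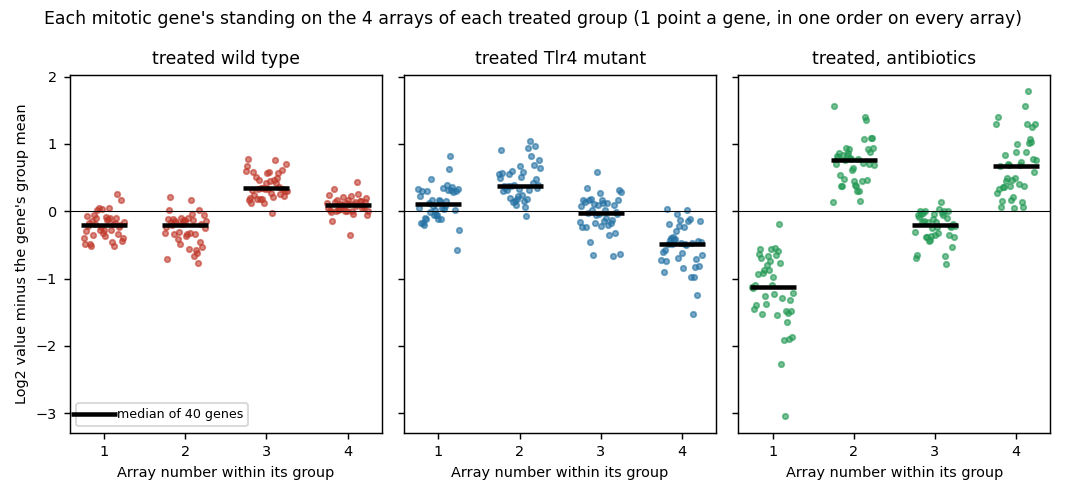
Log2 value of each of the 40 genes minus its group mean (y axis), for each array (x axis) of the 3 treated groups; each point is a gene and the bar is the median of the 40. The medians run from -1.13 to 0.77 on the antibiotic arrays, from -0.48 to 0.38 on the mutant arrays and from -0.20 to 0.34 on the treated wild-type arrays.

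The rest of the division machinery was read from 6 further lists. Of all 9482 genes, 3408 (35.9%) were called higher and 2530 lower with treatment. In the mutant 1249 were higher and 1668 (17.6%) lower, and with antibiotics 469 higher and 854 (9.01%) lower. A listed gene under 4 on every untreated array passed the filter only through treated groups, so its rise adds no support. Where the untreated level was under 4, as for Zwilch, Cenpi, Esco2, Ncapg2, Sgo1, Fbxo5, Rbl1, Mybl1 and Cdkn1a, the log2 rise is a fitted difference from a level near background. Of 23 other kinetochore genes tested, 23 were higher with treatment, 21 lower and 1 higher in the mutant, and 18 lower and 0 higher with antibiotics. Zwilch, a checkpoint protein, rose by 6.8 on the log2 scale from under the background limit, Cenpi by 6.5 and Kntc1 by 5.06. With antibiotics Cenpp fell by 2.29, Cenpi by 2.08 and Knl1 by 1.82. In the mutant, Cenpp fell by 3.15, Cenpi by 2.64 and Knl1 by 2.45. Zwint, a partner of Knl1, was the gene that was higher in the mutant, by 0.47 (adjusted p = 0.0218). Over these 23 genes the median was 3.06 with treatment and -1.29 in the mutant.

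Condensin II and cohesin moved in part. Of 16 genes 13 rose with treatment, 8 were lower and 1 higher in the mutant, and 7 were lower with antibiotics. The fitted rise was 7.17 for Esco2, which acetylates cohesin in S phase, 6.87 for Ncapg2 of condensin II and 5.12 for Sgo1, the shugoshin that protects centromeric cohesin. In the mutant Sgo1 fell by 2.79, Sgo2a by 2.02 and Esco2 by 1.91. The cohesin ring subunits Smc1a, Smc3 and Rad21 rose by 0.77, 0.66 and 0.97.

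The anaphase-promoting complex had smaller differences. Of its 16 listed genes 9 rose and 1 fell with treatment, 6 were lower in the mutant and 4 with antibiotics, and the median treatment difference was 0.45. Fbxo5 (Emi1), an inhibitor of the complex, rose by 5.60 and fell by 2.30 in the mutant and by 1.87 with antibiotics. Cdc23, a subunit, rose by 1.59 and fell by 1.14 and 0.91. Of 12 genes of the actomyosin ring, septins and abscission, 6 rose and 1 fell with treatment, against 35.9% of all genes called higher. These differences were at most 1.07 (Septin7). In the mutant 3 of the 12 were lower, against 17.6% of all genes, and 1, the formin Diaph1, higher by 0.49. With antibiotics 0 were called.

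Among 20 genes of the MuvB core, pocket proteins, E2F factors and NF-Y, 13 rose and 1 fell with treatment, 7 were lower and 0 higher in the mutant, and 5 lower with antibiotics. The pocket protein Rbl1 rose by 6.08, Mybl1 by 5.74 and E2f8 by 4.2, while Rbl2, the pocket protein of resting cells, fell by 1.23. In the mutant Mybl1 fell by 1.80, E2f7 by 1.32 and Rbl1 by 1.2. E2f1 differed by -0.46 there (adjusted p = 0.159) and E2f3 by -0.01 (adjusted p = 0.971). Of the 4 inhibitors of cyclin-dependent kinases tested, Cdkn1a (p21) rose by 7.78, Cdkn2c by 3.31 and Cdkn2d by 2.31. All 3 were lower in the mutant, by 1.06, 1.86 and 1.83, and with antibiotics Cdkn2c, Cdkn2d and Cdkn1b were lower while Cdkn1a differed by 0.20 (adjusted p = 0.741). In the direct comparison of mutant and antibiotic livers 1 of the 4 inhibitors, Cdkn1a, was lower in the mutant.

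**Figure D4:**
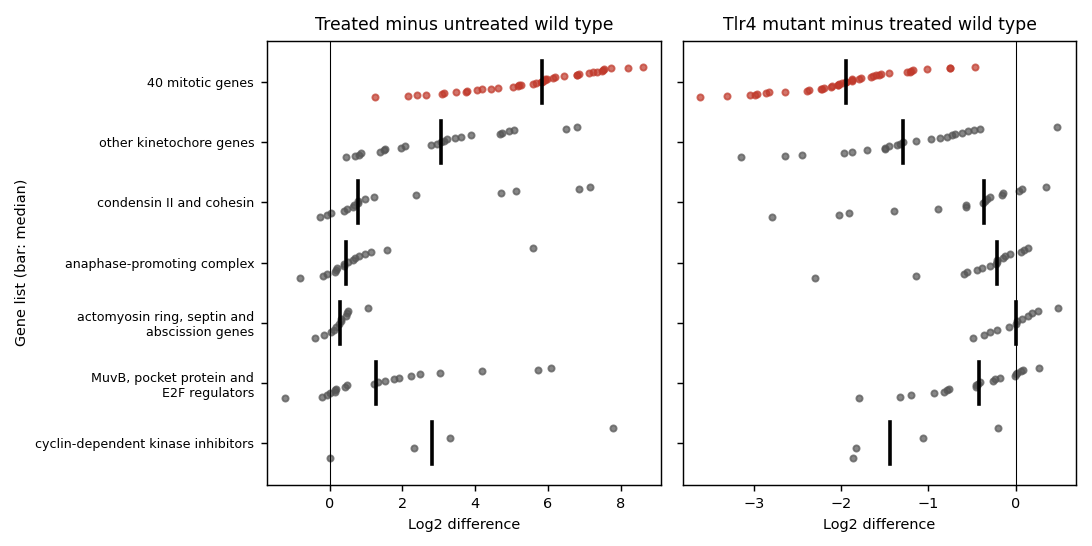
Log2 difference (x axis) of each gene of 7 lists (y axis; points, with a bar at the median) for treated against untreated wild type (left) and for the treated Tlr4 mutant against treated wild type (right). The 40 genes described here have medians of 5.83 and -1.94, and the other kinetochore genes 3.06 and -1.29.

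No probe set that passed the filter was called in the opposite direction, but the size of the rise depended on the probe set. The 40 genes had 96 probe sets, of which 71 passed the filter, and 22 genes had several. With treatment 71 of 71 were called higher; in the mutant 69 were called lower, and with antibiotics 58. The 2 not called in the mutant were the main probe set of Pttg1 and the second probe set of Spc25, so the mutant call of both genes depended on the probe set. Shares over all 15541 kept probe sets are not given. Probe sets silent in untreated liver passed only through treated groups, so 71 of 71 is no support. Some, such as the second kept probe sets of Ckap2l, Ncapg and Tpx2, passed only through treated wild type. They had to be lower in the other groups, so the counts of 69 and 58 hold calls that add no support. Those that failed the filter were not tested, and their treatment differences went both ways. Among the 22 genes, rises differed between probe sets by a median of 2.2, up to 5.69 for Cdc20 (log2).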

How the data were processed

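Mouse liver RNA was measured on 15 arrays, 1 per sample. The deposited values are log2 expression values per probe set, summarised by the authors with GCRMA per the submitters' processing notes; its version and settings are not given in the sources used here. Scanner files were not used here, and every column of the table belongs to a sample of the series (0 columns left out). Groups were taken from the sample titles. GCRMA subtracts background and leaves low probe sets near a floor, so a value under 4 was treated as a bound, a fold from it is given as "at least", and no fold is given where both groups lay under 4.

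Of 45101 probe sets, 34945 had 1 gene symbol in the platform annotation, 932 several and 9160 none, and 64 were controls. Those reaching 4 on at least 3 arrays were kept (15541), with the highest-mean probe set per gene (9482 genes). Then limma 3.58.1 in R 4.3.3 fitted 4 group means over all genes, with Benjamini-Hochberg adjustment over all 9482 and a threshold of 0.05; values for further probe sets were adjusted over the 15541. A fold is the difference of group means, with values under 4 set to 4. The fit was tested on simulated data. Of 50 genes with a true log2 difference of 1, it called 82.0% for treatment and 86.0% for the mutant comparison. No true difference was simulated for antibiotics against treated wild type. The median SD of the genes described here was 0.25 in untreated, 0.34 in treated wild-type, 0.45 in mutant and 0.94 in antibiotic livers. Over all genes it was 0.15, 0.18, 0.21 and 0.22. The simulated shares therefore cannot be carried over to the genes described here. The number of arrays limits the precision. The alternatives were other filters, scalings, priors, array weights, probe set rules, thresholds, a fit of only the groups compared and leaving out each array.

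The members and lists were chosen with earlier results of these data known. Per-array values are given for the 3 genes with the highest and the 3 with the lowest difference per comparison and for 15 genes named by function; from each further list, up to 3 called genes with the largest difference per comparison. Zwint, the cohesin ring subunits, E2f1, E2f3 and Rbl2 were named after their values were seen. Promoter sequences are RefSeq's, assembly GRCm38.p6, matched by symbol. Figures used Python 3.11.15 and matplotlib 3.10.9.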

Additional observations from a re-analysis of the deposited data

Results flagged for a closer look

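In 6 of 120 combinations of a gene and a treated group, 1 array stood apart from the other 3 by Dixon's criterion, which chance alone meets in about 1 of 20 groups. In replicate 4 of the mutant, 4 genes were lowest by that margin: Anln at 6.22 (other arrays 7.21 to 7.39), Cenpn at 3.38 (4.26 to 4.43), Incenp at 8.38 (8.98 to 9.06) and Top2a at 8.15 (8.66 to 8.73). Ncaph was highest in mutant replicate 2, at 6.92 (6.70 to 6.72), and Anln lowest in treated wild-type replicate 2, at 9.55 (10.21 to 10.31).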

How the results depend on the processing

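No count or median for the 40 genes, and no call of 1 of them, turned its direction under the alternatives run; over all genes, the treatment median and the majority direction of calls did turn with the scaling, as given above. The median treatment difference of 5.83 was 5.15 after quantile normalization, 4.55 with values under 4 set to 4 and 4.86 with a gene's probe sets averaged. The corresponding median for the mutant against untreated liver, 3.52, was 2.94, 2.65 and 2.83, and 3.91 with the filter at 6, which kept 35 of the genes; for antibiotics against untreated liver, 3.99 became 3.47, 2.79 and 3.20. The 36 genes called lower with antibiotics became 21 when only the groups compared were fitted and 9 at an adjusted p under 0.01, and 21 to 39 with 1 array left out. With 1 array left out, 37 to 40 genes were lower in the mutant than in treated wild type, 0 to 10 lower than with antibiotics, and the mutant median against untreated liver was 3.25 to 3.94. The causes were not tested, apart from the smaller gene set under the filter at 6. Over all comparisons, genes and alternatives, 5989 values for single genes kept their call or lack of one, 192 lost the call and 29 gained it. Differences that were not called could change sign within the first count. Those of Cenpk, Pttg1, Ncaph and Cks1b between mutant and antibiotic livers did so without antibiotic replicate 1. The CHR count of 17 genes became 27 with the bases after the start. No paired analysis was possible because the labels number the arrays across groups and the groups share no replicate number. Low signal limits what can be said of untreated liver, where 29 genes have only an upper bound.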
